A study of Saccharomyces cerevisiae with 27 samples.

Results

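The ribosome biogenesis factor genes described here are 61 of the 5434 genes measured on Affymetrix Yeast Genome 2.0 arrays. The rule for membership uses the gene's name: every gene whose symbol is UTP, NOP, RRP, NOC, NSA or RLP followed by a number, together with NIP7. Each of the 61 was measured by 1 probe set. By role, 6 encode subunits of the UtpA complex, 4 of UtpB and 2 of UtpC, all parts of the small-subunit processome. A further 4 encode proteins of box C/D small nucleolar RNPs, 1 a protein of box H/ACA RNPs, 16 other small-subunit factors, 21 large-subunit factors and 7 subunits of the RNA exosome.

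The cells were haploid W303 budding yeast, grown in 2% raffinose, arrested in G2/M, shifted to a higher temperature for 30 min and then given galactose for 90 min. Galactose drives the HO endonuclease, which cuts strains that carry its recognition site. The 4 groups were scc2-4 cells with a break (7 arrays), scc2-4 cells without a break (7), wild-type cells with a break (6) and wild-type cells without a break (7). All 4 were heated and, as far as the labels go, all received galactose. The labels also give a zymolase treatment of 1 h at 30 °C for every sample. Scc2 is part of the complex that loads cohesin onto chromosomes, and scc2-4 is a temperature-sensitive allele of its gene. For the site of the break, the array descriptions give chromosome VI and a sample attribute gives chr.iv. The study was run as 2 experiments: the first had 3 arrays for every group, and the second had 4, or 3 for wild type with a break. Array names give the experiment first and then the replicate number, as in 1_3. Each array held RNA of a whole culture, so a large change in some cells and a smaller change in all of them cannot be told apart.

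As background, ribosomes are assembled in the nucleolus. The UTP proteins gather with the U3 small nucleolar RNA on the nascent precursor to cut and fold the part that becomes the small subunit, while other members build the large subunit. Box C/D and box H/ACA RNPs modify the ribosomal RNA, and the exosome trims and degrades RNA from its 3' end. In yeast the genes for these factors are known to be transcribed together with growth and to fall together under stress.

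Levels are RMA values on the log2 scale, and a difference of 1 is a change of 2-fold. The arrays fell into 3 sets by their distributions of sorted values: all 12 arrays of experiment 1, the 7 wild-type arrays of experiment 2, and the 8 scc2-4 arrays of experiment 2. Sorted values differed by a mean of 0.00818 to 0.0302 between arrays of a set and by 0.147 to 0.425 between sets, so in experiment 2 genotype and processing cannot be told apart. Within each set the arrays were also divided into a pair of subsets, A and B, which the labels do not mention. The division used the sign of the main shared pattern of deviations from group means, over the genes outside the 61. Any set is split into a pair in this way. In experiment 1, subset A held replicates 1_1 and 1_2 of the groups without a break but 1_1 alone of the groups with one. The genotype comparisons of experiment 1 were therefore balanced over the subsets and the break comparisons of experiment 1 were not. In all groups but scc2-4 without a break of experiment 2, arrays of a subset lay closer together than arrays of different subsets. In that group array 2_1 had a median absolute difference of 0.0709 from 2_2 of its own subset and 0.0575 from 2_4 of subset B. Wild-type replicates 1_1 and 1_2 without a break had a median absolute difference of 0.0359, against 0.116 between 1_1 and 1_3, and the p-values do not allow for this closeness, although the labels call the replicates biological. SCC2 mRNA itself lay between 9.28 and 9.46 on the scc2-4 arrays and between 9.74 and 9.89 on the wild-type arrays of experiment 1. In experiment 2 it lay between 9.07 and 9.20 on scc2-4 arrays and between 9.47 and 9.67 on wild-type arrays, so the labelled genotypes did not overlap in either experiment.

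**Figure D1:**
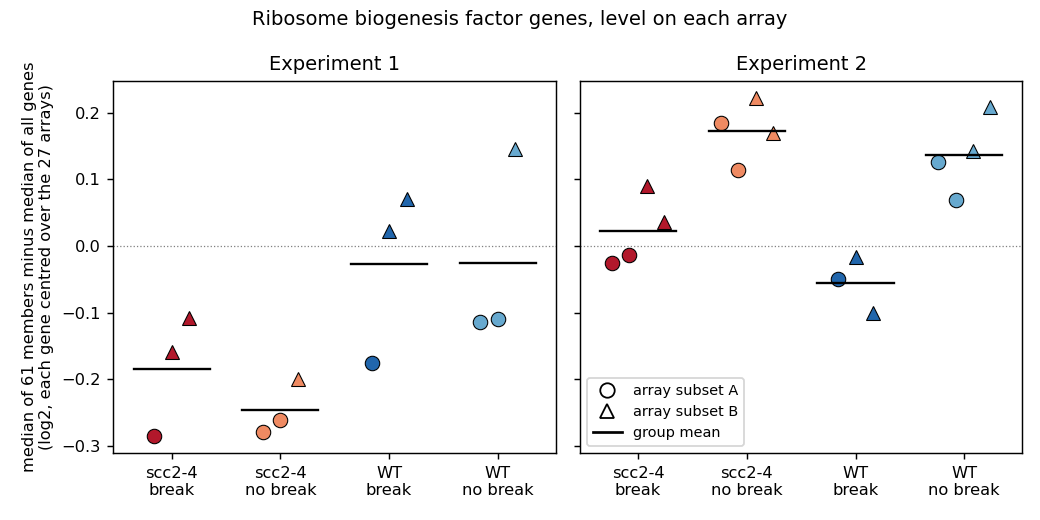
Median level of the 61 members minus the median of all 5434 genes on each array, in log2 units after each gene was centred over the 27 arrays; circles and triangles are array subsets A and B, and lines are group means. In experiment 1 all 6 scc2-4 arrays lie at or below −0.11, while wild-type arrays run up to 0.15 and the subset A arrays of wild type lie at −0.18 to −0.11.

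On each array the median of the members was set against the median of all genes. In experiment 1 it lay between −0.29 and −0.11 on the scc2-4 arrays with a break and between −0.28 and −0.20 on those without one. It lay between −0.18 and 0.07 on the wild-type arrays with a break and between −0.11 and 0.15 on those without one. In experiment 2 it lay between −0.03 and 0.09 on scc2-4 arrays with a break and between 0.11 and 0.22 on scc2-4 arrays without one. Wild-type arrays of experiment 2 lay between −0.10 and −0.02 with a break and between 0.07 and 0.21 without one. The ranges with and without a break thus did not overlap in scc2-4 or in wild type in experiment 2, and overlapped in both genotypes in experiment 1.

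The first question was how the loss of Scc2 function changes these genes when no break is made. In experiment 1, 29 of the 61 members were lower in scc2-4 cells and 1 was higher, at a limma adjusted p under 0.05 over all genes. Over all 5434 genes, 16.7% were called lower and 17.8% higher. Of the 61, 54 had a negative log2 change, and their median was −0.19, against 0.00 for all genes. Large-subunit factors were lower in 12 of 21 cases and other small-subunit factors in 9 of 16. The processome complexes had 1 of 6 UtpA members lower, 2 of 4 in UtpB and 1 of 2 in UtpC. Box C/D proteins had 1 of 4 lower, the box H/ACA protein was not called, and the exosome had 3 of 7 lower and 1 higher. All 21 large-subunit factors had a log2 change below 0.

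NOC2, which encodes a scaffold of early large-subunit precursors, showed the largest fall among the members. Its log2 levels without a break in experiment 1 were 10.27, 10.21 and 10.44 in scc2-4 cells, against 10.74, 10.72 and 11.01 in wild-type cells. Every scc2-4 array lay below every wild-type array, with a log2 change of −0.52 ± 0.09 (SE, 3 arrays each; limma adjusted p = 0.000105). NOP13, a nucleolar RNA-binding protein found in precursor ribosomes, had levels of 10.85, 10.96 and 11.09 in scc2-4 cells, against 11.37, 11.34 and 11.64 in wild-type cells. These groups did not overlap either, and the log2 change was −0.49 ± 0.10 (adjusted p = 0.000771). UTP8, a UtpA subunit, had levels of 8.89, 8.88 and 9.02 in scc2-4 cells, against 9.22, 9.25 and 9.61 in wild-type cells. Its change was −0.43 ± 0.12 (adjusted p = 0.00612), and wild-type replicate 1_3 stood above the other wild-type arrays for all 3 of these genes.

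Among the other small-subunit factors, NOP14, which acts with Noc4 in small-subunit assembly, fell by 0.40 ± 0.07 (SE; limma adjusted p = 0.000188). RRP3, an RNA helicase, changed by −0.34 ± 0.10 and UTP14, a processome protein, by −0.33 ± 0.09. In UtpB, UTP13 changed by −0.36 ± 0.08 and UTP21 by −0.23 ± 0.08. UTP22, the UtpC subunit that works with Rrp7, changed by −0.22 ± 0.05. NOP1, the fibrillarin methyltransferase of box C/D RNPs, changed by −0.39 ± 0.10 and NSA1, a component of large-subunit precursors, by −0.36 ± 0.07. All of these calls had an adjusted p of at most 0.0269. The members that were highest apart from RRP6 did not pass: RRP40, an exosome cap protein, had a change of 0.13 ± 0.06 (adjusted p = 0.0972) and UTP18, a UtpB subunit, one of 0.09 ± 0.13 (adjusted p = 0.599).

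Wild-type array 1_3 carried much of the count. Without it 11 members were called lower in place of 29, and the median was −0.09. The calls of UTP8 (−0.31, adjusted p = 0.0541), UTP14 (−0.24, adjusted p = 0.057), RRP3 (−0.22, adjusted p = 0.114), UTP21 (−0.13, adjusted p = 0.214), RRP4 (−0.12, adjusted p = 0.124) and RRP46 (−0.13, adjusted p = 0.102) ended without it. Leaving out scc2-4 array 1_1 also ended the calls of UTP21, RRP3, RRP4 and RRP46, array 1_2 that of UTP21, and array 1_3 those of UTP21, RRP4 and RRP46. Within subset A the members' median change was −0.11, with 44 of 61 below 0 (2 arrays each), and within subset B it was −0.35, with 57 of 61 below 0 (1 array each). With the subset as a block 41 members were lower, and with the arrays of a subset averaged first 10 were. No share of all genes is given for these settings here or below.

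**Figure D2:**
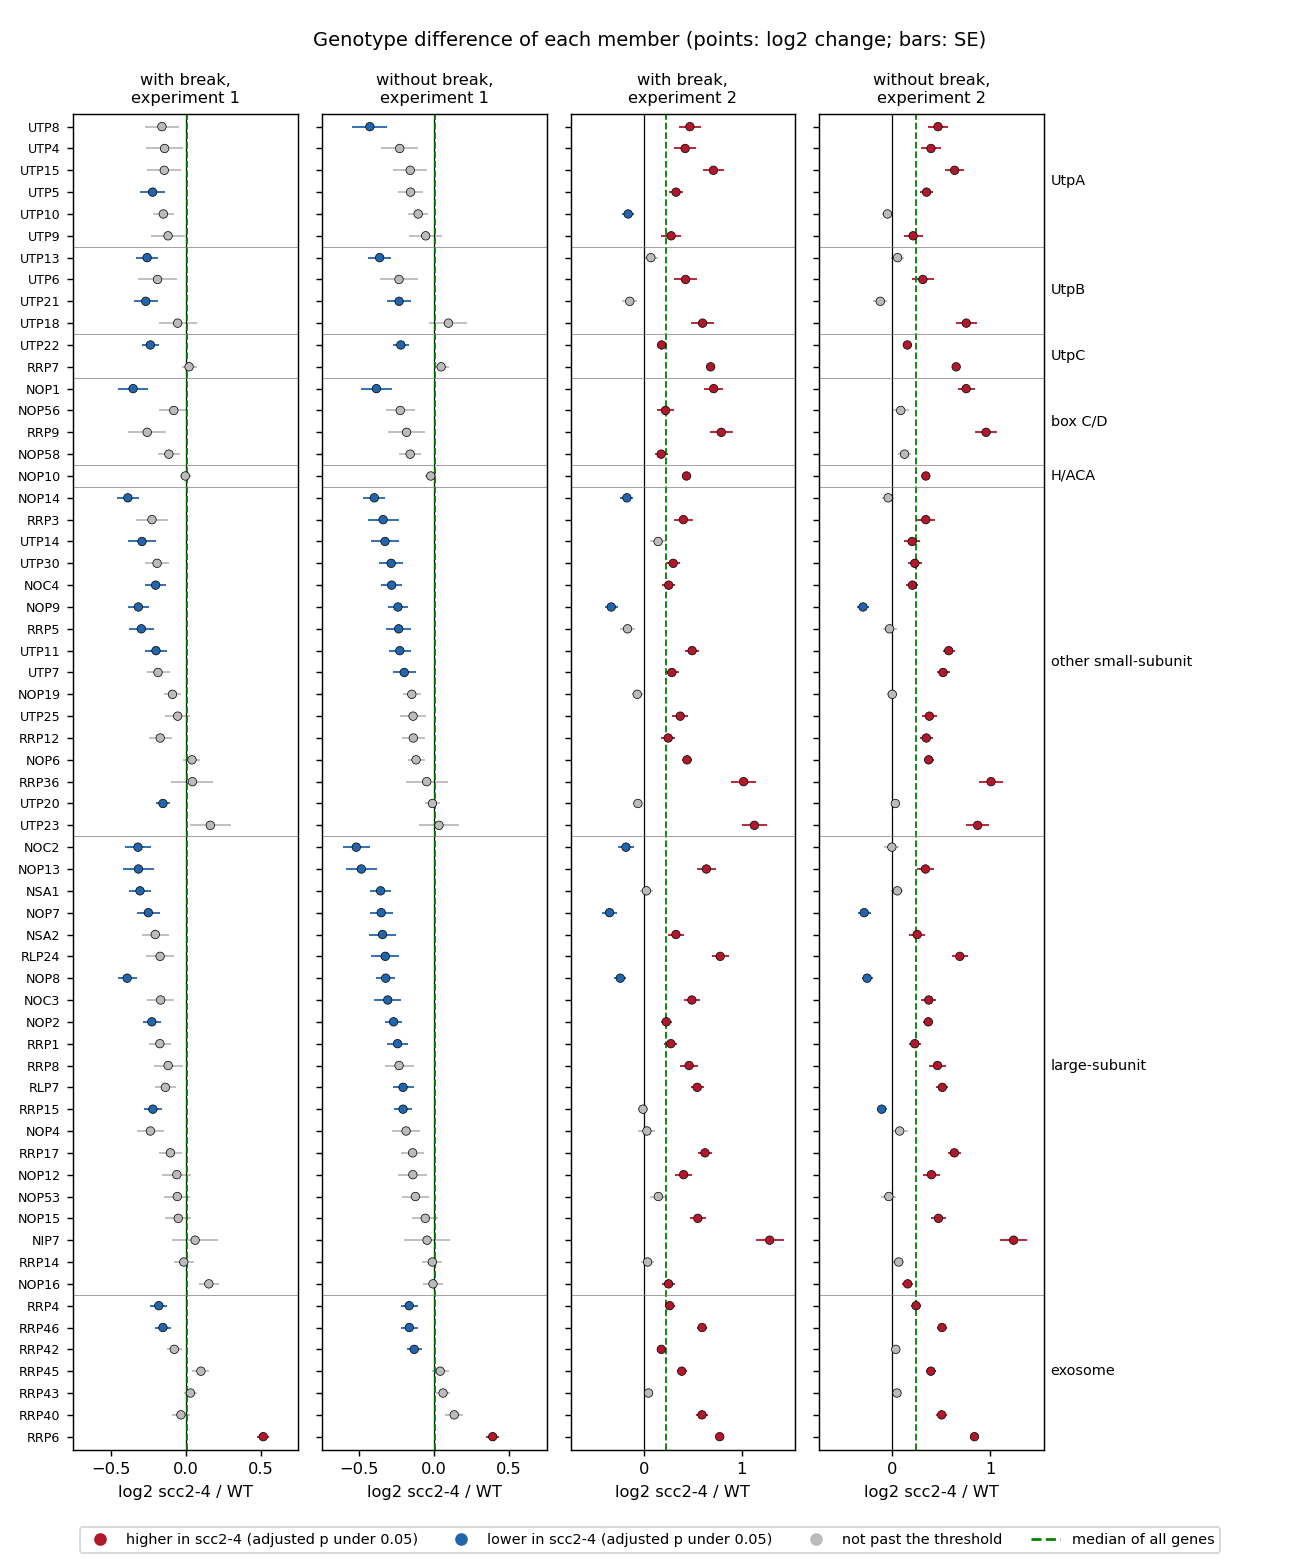
Log2 change (scc2-4 over wild type) with its SE for each of the 61 members, grouped by role, with and without a break in each experiment; colours mark calls at a limma adjusted p under 0.05 and dashed lines the median of all genes. In experiment 1 most members lie left of 0 and RRP6 alone is called higher; in experiment 2 the whole distribution of genes lies to the right, with all-gene medians of 0.23 and 0.24, and NOP7, NOP8 and NOP9 stay left of 0.

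With a break in experiment 1, 21 of 61 members were lower in scc2-4 cells and 1 was higher, against 17% and 19.2% of all genes. Of the 61, 52 had a negative change and the median was −0.16, against 0.01 for all genes. Of the 29 members lower without a break and the 21 lower with one, 19 were the same genes, which is 65.5% of the first list and 90.5% of the second. The same overlap over all genes is not given here. The changes with and without a break correlated at 0.85 over the members and 0.84 over all genes, so this agreement was not particular to the members. The arrays of the comparisons with and without a break were separate. Large-subunit factors were lower in 7 of 21 cases, other small-subunit factors in 7 of 16, UtpA in 1 of 6, UtpB in 2 of 4, UtpC in 1 of 2, box C/D proteins in 1 of 4 and the exosome in 2 of 7. The box H/ACA gene NOP10 had a change of 0.00.

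NOP8, which encodes a large-subunit factor that binds Nip7, had the lowest log2 change of the members with a break. Its log2 levels were 9.24, 9.31 and 9.40 in scc2-4 cells with a break, against 9.56, 9.74 and 9.82 in wild-type cells with a break. The groups did not overlap, and the change was −0.39 ± 0.06 (SE, 3 arrays each; limma adjusted p = 5.81e-05). NOP14 changed by −0.39 ± 0.07, NOP1 by −0.35 ± 0.10 and NOC2 by −0.32 ± 0.09. NOP9, an RNA-binding small-subunit factor, changed by −0.32 ± 0.07, NOP13 by −0.31 ± 0.10 and RRP5, a large protein that serves both subunits, by −0.30 ± 0.08. UTP21, UTP13, UTP22 and UTP5, a UtpA subunit, changed by −0.27 ± 0.08, −0.26 ± 0.08, −0.24 ± 0.05 and −0.22 ± 0.08. UTP23, a processome protein, was at 0.17 ± 0.14 (adjusted p = 0.365) and NOP16, a large-subunit factor, at 0.15 ± 0.07 (adjusted p = 0.0742), neither past the threshold.

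This count also moved with single arrays. It was 34 without wild-type array 1_1, 12 without wild-type array 1_2 or 1_3, and 10 without scc2-4 array 1_1. Without scc2-4 array 1_1 NOP13 was at −0.18 (limma adjusted p = 0.154), NOP1 at −0.25 (adjusted p = 0.0711), UTP13 at −0.21 (adjusted p = 0.0573), UTP21 at −0.22 (adjusted p = 0.0612) and UTP5 at −0.18 (adjusted p = 0.127). The RRP4 and RRP46 calls ended in the same way, and without wild-type array 1_2 or 1_3 the calls of UTP5, RRP4, RRP46 and NOP13 ended as well. The NOP1 call also ended without wild-type array 1_2, that of UTP21 without wild-type array 1_3, that of UTP5 without scc2-4 array 1_2 and that of RRP46 without scc2-4 array 1_3. Within subset A the members' median change was −0.08, with 43 of 61 below 0 (1 array each), and within subset B −0.20, with 54 of 61 below 0 (2 arrays each). With the subset as a block 37 members were lower, and with subset means 2 were.

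RRP6, the nuclear exonuclease of the exosome, went the other way from most members. With a break in experiment 1 its levels were 10.51, 10.39 and 10.52 in scc2-4 cells, against 9.93, 9.99 and 9.94 in wild-type cells. Without a break they were 10.40, 10.38 and 10.45 in scc2-4 cells, against 10.06, 9.95 and 10.04 in wild-type cells. Neither pair of groups overlapped. The change was 0.52 ± 0.04 (SE; limma adjusted p = 6.99e-09) with a break and 0.39 ± 0.04 (adjusted p = 3.36e-07) without one, and the values without 1 array ran from 0.49 to 0.56 and from 0.36 to 0.41. RRP4, a cap protein of the same complex, was lower by −0.18 ± 0.06 with a break and −0.17 ± 0.06 without one, and RRP46, a ring subunit, by −0.15 ± 0.05 and −0.17 ± 0.05. Outside the 61, LRP1, whose product is the partner protein of Rrp6 in yeast, was lower by −0.34 ± 0.05 and −0.32 ± 0.05.

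**Figure D3:**
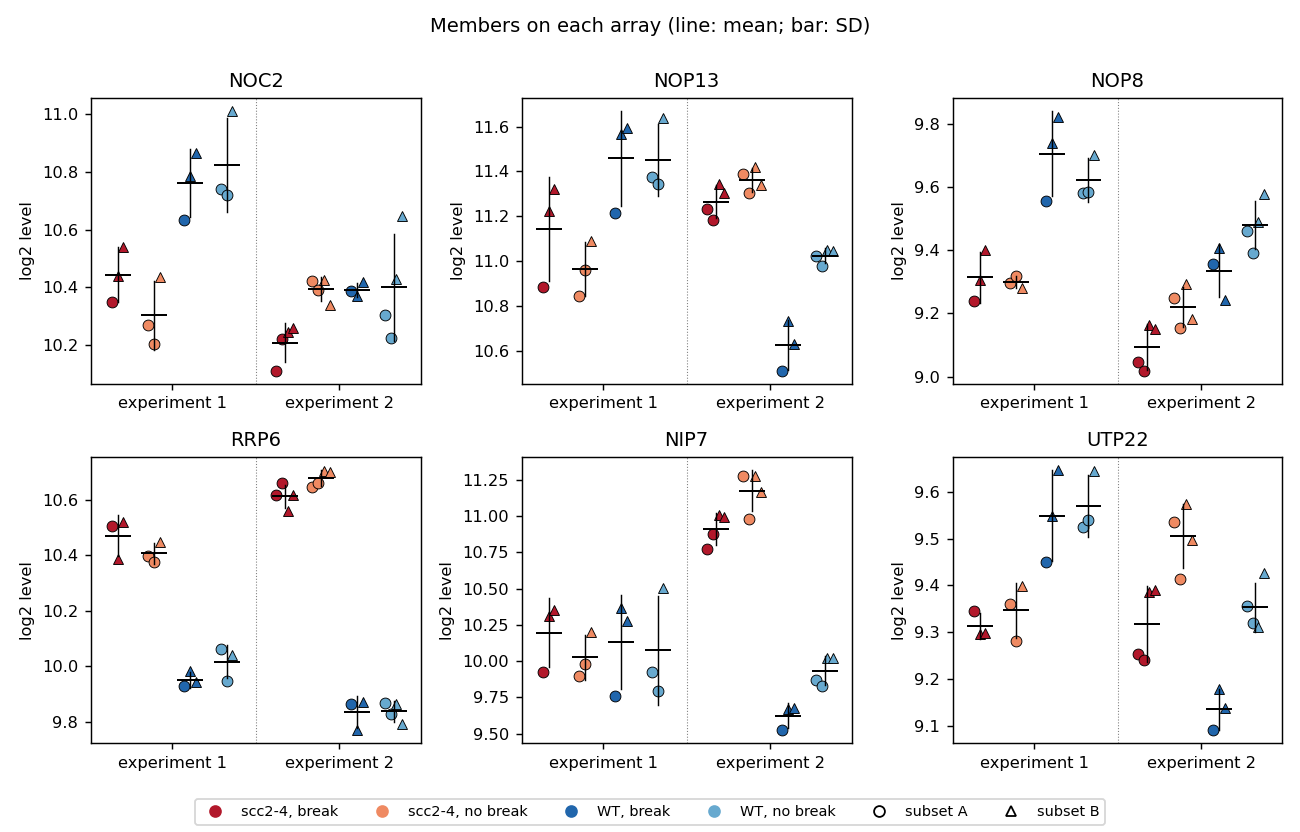
Log2 level of 6 members on each of the 27 arrays, with the mean and SD of each group; circles and triangles are array subsets A and B. NOC2, NOP13 and NOP8 lie lower in scc2-4 cells in experiment 1, RRP6 lies higher in scc2-4 cells in both experiments, and in experiment 2 NOP13 and UTP22 lie lower with a break in wild type than without one.

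Genes of the same pathway outside the 61 were also called lower more often than higher in experiment 1, where 16.7% of all genes were lower without a break and 17% with one. Without a break 16 of 36 other small-subunit factors were lower in scc2-4 cells and 0 higher, and all 36 had a negative change. KRR1 and MRD1, both needed for small-subunit assembly, changed by −0.57 ± 0.10 and −0.50 ± 0.07 (SE). The list of 48 other large-subunit factors was drawn up with the box H/ACA genes GAR1, NHP2 and CBF5, and TRM112, in it. Of the 48, 22 were lower and 0 higher. Among those lower were ARX1, a factor in export of the large subunit, at −0.47 ± 0.11 and DBP9, an RNA helicase, at −0.45 ± 0.10. Of 11 exosome subunits and cofactors 4 were lower and 0 higher, including MTR4, the helicase that feeds RNA to the exosome, at −0.25 ± 0.08. With a break the counts were 15 lower and 0 higher of 36, 18 lower and 1 higher of 48, and 4 lower and 1 higher of 11. HAS1, an RNA helicase, was then at −0.46 ± 0.08, MRD1 at −0.44 ± 0.07, ARX1 at −0.46 ± 0.11, SSF1, a large-subunit factor, at −0.45 ± 0.14 and MTR3, an exosome ring subunit, at −0.29 ± 0.05. Without wild-type array 1_3 the lower counts without a break were 12 of 36, 12 of 48 and 2 of 11, and with subset means 11, 11 and 2. With a break, subset means gave 5, 2 and 2 lower. Leaving out 1 array gave 9 to 20 lower of 36, with 9 without wild-type array 1_2. It gave 7 to 29 of 48, with 7 or 8 without scc2-4 array 1_1 or wild-type array 1_2 or 1_3 and 29 without wild-type array 1_1. It gave 2 to 6 of 11, with 2 without any scc2-4 array or without wild-type array 1_2 or 1_3. These lists, like the rule for the 61, were drawn up with earlier results of these data known.

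Of 13 transcription regulators tied to this regulon, 3 were lower without a break and 0 higher, and 2 were lower and 1 higher with one, beside 16.7% and 17% of all genes called lower. Without a break 1 was lower when scc2-4 array 1_3 was left out, and with a break 1 when scc2-4 array 1_2 was. TOD6, a repressor of ribosome biogenesis genes, was lower in scc2-4 cells by −0.64 ± 0.10 (SE) with a break and −0.63 ± 0.10 without one. REB1, a general regulatory factor, was at −0.27 ± 0.08 without a break (limma adjusted p = 0.00867), and ABF1, another, at 0.19 ± 0.05 with a break (adjusted p = 0.00803). SFP1, the activator of the regulon, had a change of 0.18 ± 0.07 with a break (adjusted p = 0.0658) and 0.00 ± 0.07 without one (adjusted p = 0.999), and was added to the named genes after its value was seen. Of 10 cell cycle genes (CLB1, CLB2, CDC20, SWI5, CLN1, CLN2, PCL1, ASH1, CTS1 and DSE2), CLN1 and ASH1 were higher in scc2-4 cells with a break, and without one CLN1 was higher and CLB2, CDC20 and DSE2 were lower. The log2 of their summed signal ranged from 12.8 to 12.92 in scc2-4 cells and from 12.73 to 12.84 in wild-type cells with a break. Without one it ranged from 12.89 to 12.95 in scc2-4 cells and from 12.96 to 12.99 in wild-type cells. The sum of CLN1, CLN2 and PCL1 alone ranged from 10.06 to 10.17 in scc2-4 and from 9.85 to 9.90 in wild-type cells with a break. Without one it ranged from 9.93 to 10.01 and from 9.885 to 9.95. The part of the 10 genes in the members' result was not tested.

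In experiment 2 the same comparison gave values of the opposite sign for most members. With a break 43 members were higher in scc2-4 cells and 6 lower, against 58.6% and 23.4% of all genes, and without a break 41 were higher and 4 lower, against 60.6% and 23.3%. The members' median was 0.30 with a break and 0.34 without one, while that of all genes was 0.23 and 0.24, so that the members lay 0.07 and 0.10 above the whole table. Once arrays were centred on their medians, 22 members were higher and 16 lower with a break, and 23 and 17 without one. Quantile normalization of all arrays together gave 21 higher and 16 lower, and 22 higher and 18 lower. The shares of all genes above are for the values as deposited, and none is given for these scalings. The sign for a single member in experiment 2 thus depended on the scale in part. Of the 10 cell cycle genes 8 were higher in scc2-4 cells and 0 lower in both states. Their summed G1 signal (CLN1, CLN2 and PCL1) ranged on the log2 scale from 10.26 to 10.61 in scc2-4 cells and from 9.10 to 9.38 in wild-type cells. The G2/M sum (CLB1, CLB2, CDC20 and SWI5) ranged from 11.83 to 12.03 in scc2-4 cells and from 11.38 to 11.75 in wild-type cells. The M/G1 sum (ASH1, CTS1 and DSE2) ranged from 11.82 to 12.09 and from 11.235 to 11.72. The part of the 10 genes in the members' result was not tested. NIP7, RRP36, RRP9, UTP23 and RRP6 had the largest rises without a break, where NOC2 and NOP14 had changes of −0.01 and −0.04 as deposited but −0.25 and −0.29 after centring.

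NIP7, a large-subunit factor that acts in maturation of the 27S precursor, had the largest rise of the members in experiment 2 and was not called in experiment 1. In experiment 2 its levels with a break were 10.78, 10.87, 11.01 and 10.99 in scc2-4 cells, against 9.52, 9.67 and 9.68 in wild-type cells. Without a break they were 11.28, 10.98, 11.28 and 11.17 in scc2-4 cells, against 9.87, 9.83, 10.02 and 10.02 in wild-type cells. Its change was 1.29 with a break and 1.24 without one, and after quantile normalization 1.00 and 0.95. In experiment 1 its levels with a break were 9.93, 10.31 and 10.35 in scc2-4 cells, against 9.76, 10.36 and 10.27 in wild-type cells, and without a break 9.90, 9.98 and 10.20 against 9.93, 9.80 and 10.50. Both pairs overlapped, with changes of 0.06 ± 0.15 (SE; limma adjusted p = 0.78) and −0.05 ± 0.15 (adjusted p = 0.838). In experiment 1 every subset B array was above every subset A array.

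Which members were called lower in both experiments depended on the scaling. As deposited, NOP7, NOP8 and NOP9, together with RRP15, were the 4 members called lower in scc2-4 cells without a break in both experiments. With a break the 5 were NOP7, NOP8, NOP9, NOC2 and NOP14. After centring 12 members were lower in both experiments in either state, and after quantile normalization 13, and NOP7, NOP8, NOP9, NOC2, NOP14 and RRP15 were among them in each of these cases. These genes were picked out after their values were seen. Of all genes as deposited, 16.7% were lower in experiment 1 and 23.3% in experiment 2 without a break, and 17% and 23.4% with one. The share of all genes lower in both experiments is not given here, so these counts are description only. NOP8 in experiment 2 had levels of 9.05, 9.02, 9.16 and 9.15 in scc2-4 cells with a break, against 9.36, 9.41 and 9.24 in wild-type cells with a break. Without a break it had 9.25, 9.16, 9.29 and 9.18 in scc2-4 cells, against 9.46, 9.39, 9.49 and 9.58 in wild-type cells. Its change was −0.24 with a break and −0.26 without one, and −0.52 and −0.54 after quantile normalization. NOP9 was at −0.33 and −0.30 as deposited, and NOP7, whose product acts with Erb1 and Ytm1 on the large subunit, at −0.35 and −0.29. RRP6 was the member called higher in all 4 genotype comparisons, with 0.78 and 0.84 in experiment 2 as deposited and 0.51 and 0.57 after quantile normalization.

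The difference between the experiments was itself tested. The genotype change of experiment 2 minus that of experiment 1 was positive and past the threshold for 46 of 61 members with a break and for 46 without one, and negative for 0 in either state. Over all genes 54.7% and 56.4% were called higher in this test, and 17.6% and 19.3% lower. The members' median difference was 0.44 with a break and 0.49 without one, against 0.24 and 0.25 for all genes. After centring, the median was 0.205 with a break, with 27 members higher, and 0.27 without one, with 36 higher. After quantile normalization it was 0.22, with 24 higher, and 0.28, with 35 higher. As deposited, 18 of the 61 were called lower in experiment 1 and higher in experiment 2 without a break, and 9 with one. Of all genes 60.6% were called higher in experiment 2 without a break and 58.6% with one. The share of all genes that switched in this way is not given here. Since the wild-type and scc2-4 arrays of experiment 2 lay in different processing sets, a difference between the experiments and a difference between these sets cannot be told apart.

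The next question was how each genotype responds to the break. In experiment 2 every one of the 61 members had a lower value with a break than without one, in scc2-4 cells and in wild-type cells. In scc2-4 cells 10 members passed the threshold and 0 rose, against 3.72% of all genes called lower and 3.81% higher, with a median change of −0.17. In wild-type cells 16 passed and 0 rose, against 8.47% of all genes lower and 9.16% higher, with a median of −0.18. The all-gene median was −0.01 in both genotypes. With arrays of a subset averaged first 0 members were lower in either genotype, and with the subset as a block 48 were in scc2-4 cells and 49 in wild-type cells. The shares of all genes above belong to the main fit and not to these settings. In experiment 1 no member passed with limma in either genotype, where 3.64% of all genes were called in scc2-4 cells and 1.18% in wild-type cells. At an unadjusted p under 0.05 there were 4 members in scc2-4 cells and 2 in wild-type cells, and the medians were 0.06 and 0.01.

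In scc2-4 cells of experiment 2 the members called lower were led by RRP9, the U3-specific protein of box C/D RNPs. Its levels were 9.19, 9.38, 9.47 and 9.46 with a break, against 9.73, 9.51, 9.95 and 9.77 without one. The groups did not overlap, and the change was −0.37 ± 0.11 (SE, 4 arrays each; limma adjusted p = 0.0421). RRP12, which aids export of precursor subunits, had 10.59, 10.65, 10.73 and 10.73 with a break, against 10.96, 10.89, 11.09 and 11.04 without one. Again the groups did not overlap, with a change of −0.32 ± 0.07 (adjusted p = 0.00498). Other small-subunit factors made up 6 of the 10, with RRP5, UTP7, NOP9, NOP14 and UTP20 beside RRP12. The rest were UTP22, RRP9 and the large-subunit factors RRP1 and NOP2. With subset means RRP9 and RRP12 had adjusted p-values of 0.652 and 0.421. The count of members called lower depended on single arrays of the group: it was 1 without array 2_1 with a break, 2 without array 2_1 or 2_3 without a break, 5 without array 2_4 without a break or 2_2 with one, and 20 without array 2_2 without a break. The count was 22 without wild-type array 1_3 without a break, which enters only through the shared spread.

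In wild-type cells of experiment 2 UTP23 showed the largest fall. Its levels were 10.23, 10.13 and 10.05 with a break, against 10.61, 10.45, 10.64 and 10.59 without one. The groups did not overlap, and the change was −0.43 ± 0.13 (SE, 3 against 4 arrays; limma adjusted p = 0.0211). NOP13 had 10.51, 10.73 and 10.63 with a break, against 11.02, 10.98, 11.05 and 11.05 without one. This separation was larger than the spread within either group, with a change of −0.40 ± 0.09 (adjusted p = 0.00599). NOP10, the small protein at the core of box H/ACA RNPs, had 12.01, 11.93 and 11.89 with a break, against 12.14, 12.15, 12.16 and 12.10 without one. It had the lowest adjusted p of the members, with a change of −0.19 ± 0.03 (adjusted p = 0.000505). With subset means the adjusted p-values were 0.352 for UTP23, 0.203 for NOP13 and 0.151 for NOP10. Large-subunit factors made up 6 of the 16 and other small-subunit factors 5, both UtpC members passed, and UtpA and the exosome had 1 each. The count was 4 without array 2_3 with a break, 7 without array 2_2 with a break, 9 without array 2_1 or 2_3 without a break, and 27 without array 1_3 without a break, which enters through the shared spread.

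UTP22, RRP1, RRP12 and NOP9 were the 4 members called lower with a break in both genotypes of experiment 2, which is 40% of the scc2-4 list and 25% of the wild-type list. The same overlap over all genes is not given here. The break changes of the genotypes correlated less over the members, at 0.23, than over all genes, at 0.53. UTP22 had levels of 9.25, 9.24, 9.39 and 9.39 in scc2-4 cells with a break, against 9.54, 9.41, 9.57 and 9.50 in scc2-4 cells without one. In wild-type cells it had 9.09, 9.18 and 9.14 with a break, against 9.36, 9.32, 9.31 and 9.43 without one. The groups did not overlap in either genotype, with changes of −0.19 ± 0.05 and −0.22 ± 0.05 (SE), and adjusted p-values of 0.53 and 0.147 with subset means. In experiment 1 UTP22 was at −0.03 ± 0.05 in scc2-4 cells and −0.02 ± 0.05 in wild-type cells.

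**Figure D4:**
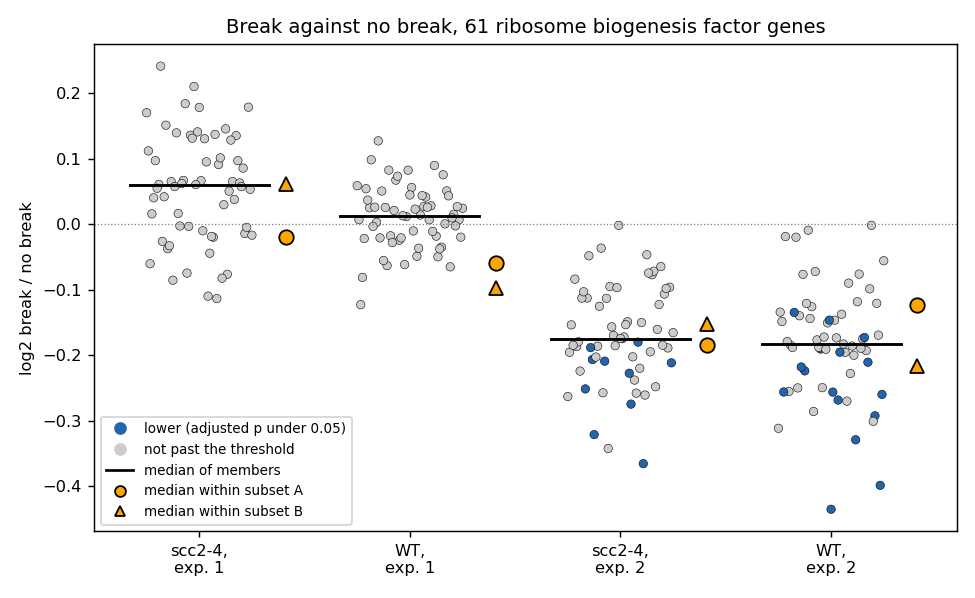
Log2 change (break over no break) of each of the 61 members in scc2-4 and wild-type cells of each experiment; lines are medians over members, coloured points passed a limma adjusted p under 0.05, and orange symbols give the members' median within array subsets A and B. In experiment 2 all members lie below 0 with medians of −0.17 and −0.18, and in experiment 1 the medians are 0.06 and 0.01 but the wild-type medians within the subsets are −0.06 and −0.10.

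In experiment 1 the break comparison crossed the array subsets unevenly, and members were higher on subset B arrays. The members' median gap between subset B and subset A was 0.13 in scc2-4 cells with a break and 0.05 in scc2-4 cells without one, and 0.23 in wild-type cells with a break and 0.27 in wild-type cells without one. Within subset A of experiment 1 the median break change was −0.02 in scc2-4 cells, with 37 of 61 members below 0, and −0.06 in wild-type cells, with 49 below 0. Within subset B it was 0.06 in scc2-4 cells, with 15 below 0, and −0.10 in wild-type cells, with 55 below 0. The wild-type median thus changed sign within the subsets, while in scc2-4 cells the subsets gave opposite signs. In experiment 2 the within-subset medians were −0.18 and −0.15 in scc2-4 cells, with 61 and 59 members below 0, and −0.12 and −0.22 in wild-type cells, with 52 and 61 below 0. The tests of the difference between experiments called 0 members in either genotype, with 32 members in scc2-4 cells and 16 in wild-type cells at an unadjusted p under 0.05. Over all genes 0.0736% and 0.092% were called.

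Averaged over the experiments, 3 members were lower with a break in scc2-4 cells and 4 in wild-type cells, against 3.4% and 6.22% of all genes called lower. In scc2-4 cells these were RRP12 (−0.20 ± 0.05), NOP9 (−0.17 ± 0.05) and UTP20, a processome scaffold (−0.15 ± 0.03). In wild-type cells they were UTP30, a processome protein (−0.17 ± 0.05), RRP45, an exosome ring subunit (−0.14 ± 0.04), UTP22 (−0.12 ± 0.04) and NOP10 (−0.11 ± 0.02). The median was −0.06 in scc2-4 cells, with 52 of 61 below 0, and −0.08 in wild-type cells, with 60 of 61 below 0. NIP7 was at −0.05 ± 0.10 in scc2-4 cells and −0.13 ± 0.11 in wild-type cells, neither past the threshold. With the array subset as a block 24 members were lower in scc2-4 cells and 39 in wild-type cells, while with subset means 0 were in either.

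The wild-type count ran from 1 to 7 as single arrays were left out. It was 1 without array 1_3 without a break, 1_1 with a break or 2_3 with a break, 2 without array 2_1 or 2_4 without a break, and 7 without array 1_2 without a break or 1_3 with a break. The calls of UTP22, RRP45 and UTP30 each ended in at least 4 of these left-out fits, and that of NOP10 in none of them. In scc2-4 cells the count ran from 2 to 6, with 6 without array 2_2 without a break and 5 without wild-type array 1_3 without a break. The NOP9 call ended without array 1_1 or 2_3 without a break and without array 1_2 or 2_2 with a break.

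Genes outside the 61 were counted in the same averages. Of all genes, 3.4% were called lower in scc2-4 cells and 6.22% in wild-type cells. In scc2-4 cells 1 of 36 other small-subunit factors was lower, DBP8, an RNA helicase, at −0.26 ± 0.06 (SE), and 2 of 48 other large-subunit factors were, LSG1 at −0.18 ± 0.05 and MAK21, which encodes the partner of Noc2, at −0.17 ± 0.04. In wild-type cells 1 of 36 was lower, BUD21 at −0.17 ± 0.04, and 6 of 48, led by DBP7, another helicase, at −0.23 ± 0.07. In wild-type cells REB1 was at −0.19 ± 0.05 and ABF1 at −0.18 ± 0.04, and in scc2-4 cells IFH1, a regulator of ribosomal protein genes that can be bound by Utp22, was at −0.15 ± 0.04. Of the 10 cell cycle genes 1 was lower with a break in scc2-4 cells, SWI5, and 7 were in wild-type cells. The log2 of their summed signal in experiment 2 ranged from 13.06 to 13.13 with a break and from 13.18 to 13.31 without one in scc2-4 cells, and from 12.47 to 12.56 with a break and from 12.71 to 12.79 without one in wild-type cells. Their part in the members' result was not tested.

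The last question was whether the response to the break differs between the genotypes. Of the 61 members 0 passed the limma test of the difference, averaged over the experiments, and 4 had an unadjusted p under 0.05. Over all genes 3.92% were called. The median difference of the break changes, scc2-4 minus wild type, was 0.03. NOP13 had the largest difference, 0.24 ± 0.10 (SE; limma adjusted p = 0.18), followed by UTP23 at 0.20 ± 0.13 and NOP56, a core protein of box C/D RNPs, at 0.14 ± 0.09. The lowest were UTP18 at −0.15 ± 0.12, RRP9 at −0.12 ± 0.12 and UTP20 at −0.11 ± 0.04. With the array subset as a block 6 members passed, all of them with a positive difference: NOP13 (0.25 ± 0.04, adjusted p = 0.000881), UTP23, NOP56, NOC3, NSA2 and RRP42. With subset means 0 passed. The subsets were drawn from the deviations of these same arrays, so the block lowers the spread, and the SE of NOP13 was 0.10 without it. Calls under the block are therefore given as description only. The median turned to −0.02 without wild-type array 1_3 without a break and to −0.01 without wild-type array 1_1 with a break.

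Beyond the groups, the members moved together from array to array. After group and experiment means were taken out, the median Pearson correlation over the 1830 pairs of members was 0.70 across the 27 arrays, and 97.1% of the pairs were above 0. With the means of the array subsets also taken out it was 0.36, and 82.3% of the pairs were above 0. Over the genes outside the members, the main shared pattern held 60.1% to 70.9% of the variance of deviations in a set. No correlation over pairs of other genes is given, so the co-movement is not shown to be particular to the members. These correlations describe arrays that share subsets and normalization, and no test was made of them.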

How the data were processed

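Total RNA of 27 cultures was hybridised to Affymetrix Yeast Genome 2.0 arrays. The authors deposited log2 expression values per probe set, which the submitters' processing notes credit to RMA and to R 2.9.2; the RMA version and the arrays normalized in each run are not given in the sources used here, and scanner files were not used here. Of 5684 probe sets, 5468 had 1 symbol, 216 none and 0 several. A gene was represented by its probe set of highest mean level, a choice that touched 34 genes, and 5434 genes remained. All 61 members kept their symbols when updated, and 0 columns lacked a sample. Arrays limit precision by their number.

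The values were fitted with limma 3.58.1 in R 4.3.3, with a mean for each group in each experiment (over 27 arrays), moderated variances and Benjamini-Hochberg adjustment over all genes at 0.05. The procedure was tested on simulated data with independent errors. These lacked the deviations that arrays of a subset shared, so the simulation does not show how the calls hold under them. Errors are SEs of the fit. The members and gene lists were chosen with earlier results of these data known. The named genes are NIP7, SCC2, up to 3 called members per role with the largest change in each main comparison, the 3 largest rises and falls over all members, and up to 2 genes of each other list; further genes were named after their values were seen. Alternatives covered the experiment term, processing set, replicate number, each experiment alone, centring, quantile normalization, array weights, moderation, probe sets, dim genes and single arrays. The array subsets, and the tests between experiments of the break effects, were chosen after seeing the data. The subsets come from the deviations of these same arrays, so calls with the subset as a block are description only. The replicate numbers paired the arrays only in part. Over 39 pairs with the same number the correlation of deviations ran from −0.67 to 0.77, and 25 were above 0.1. Over 99 pairs with different numbers it ran from −0.84 to 0.80. In experiment 1 it ran from 0.55 to 0.77 between 1_1 arrays and from 0.35 to 0.68 between 1_3 arrays. For 9 of the 27 arrays the best-correlated array of another group in the experiment had the same number. The main fit has no replicate block.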

Additional observations from a re-analysis of the deposited data

Results flagged for a closer look

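Of 102 groups of 4 arrays over 34 named members, 2 held an array far from the others by Dixon's test, and chance alone gives such arrays at a rate of about 0.05 per group. NOP10 was at 12.337 on scc2-4 array 2_1 with a break, where the other arrays of the group lay between 12.396 and 12.402. RRP40 was at 10.866 on scc2-4 array 2_3 with a break, where the others lay between 10.737 and 10.751.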

How the results depend on the processing

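Counts are of the 61 members, and medians are their log2 changes. No share of all genes is given beside the counts of these alternatives. With an additive experiment term the genotype comparisons of experiment 1 gave 9 members lower and a median of 0.072 with a break, and 7 lower and 0.079 without one, both medians reversed in sign; UTP5 (0.066), NOP1 (0.21), RRP4 (0.055), RRP46 (0.25) and NOP13 (0.18) with a break and UTP8 (0.082), NOP1 (0.27), RRP4 (0.067), RRP46 (0.22) and RRP3 (0.049) without one also reversed, and 0 were lower with a break on average in either genotype. This term forces 1 genotype effect on both experiments. With experiment 1 alone 18 were lower in scc2-4 cells without a break, and the break gave 0 called and medians of 0.06 in scc2-4 and 0.013 in wild type. With experiment 2 alone the break gave 25 lower and −0.174 in scc2-4, 34 lower and −0.183 in wild type, and 1 called for the difference.

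With the array subset as a block the genotype comparison with a break of experiment 1 gave 37 lower, the average break effect 24 (scc2-4) and 39 (wild type), their difference 6, the break in experiment 1 gave 2 called with a median of −0.003 in scc2-4 and 1 with −0.045 in wild type, in experiment 2 48 and 49 lower, and the difference between experiments 8 and 5. With subset means the genotype comparisons gave 2 lower (with a break) and 10 (without) in experiment 1 and 3 lower with a break in experiment 2, the break gave 0 lower on average and in experiment 2 in both genotypes, a wild-type median of −0.073 in experiment 1 and −0.093 for the difference between experiments. Array weights gave 41 lower with a break in experiment 1, 17 lower for the average break effect in scc2-4, 3 called and −0.007 for the genotype difference of it, 28 called (scc2-4) and 42 with a median of 0.161 (wild type) in experiment 1, 49 and 43 lower in experiment 2, 52 called and 55 called with −0.366 for the difference between experiments, and 0.403 for the genotype difference between experiments without a break.

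Centring gave 22 higher, 16 lower and 0.054 with a break and 23, 17 and 0.093 without one in experiment 2, and 27 higher with 0.205 (with) and 0.272 (without) for the difference between experiments. Quantile normalization gave 21, 16 and 0.068, then 22, 18 and 0.068, and 24 higher with 0.224 and 0.282. The replicate block gave 7 lower (scc2-4) and 10 (wild type) for the average break effect, 1 called for their difference, 2 called in scc2-4 in experiment 1, 29 and 28 lower in experiment 2, and 5 and 1 called for the difference between experiments; it changed no other call of a named gene. The cause of these moves was not tested.

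Leaving out 1 array, the genotype comparisons of experiment 1 ranged over 10 to 34 lower and −0.257 to −0.105 with a break, and 11 to 31 and −0.245 to −0.091 without one. In experiment 2 they ranged over 41 to 44 higher, 3 to 8 lower (3 without scc2-4 array 2_1 with a break) and 0.283 to 0.346, and over 39 to 42 higher, 3 to 4 lower and 0.29 to 0.347. The average break effect ranged over 2 to 6 lower and −0.075 to −0.03 in scc2-4, 1 to 7 and −0.104 to −0.029 in wild type, and their difference over 0 to 1 and −0.017 to 0.052. In experiment 1 the break gave 0 to 3 called (3 without scc2-4 array 1_1 with a break) and 0.027 to 0.105 in scc2-4, and 0 and −0.039 to 0.115 in wild type; in experiment 2, 1 to 22 lower and −0.199 to −0.143, and 4 to 27 and −0.203 to −0.163. The differences between experiments ranged over 43 to 50 higher and 0.406 to 0.528 with a break, 43 to 49 and 0.4 to 0.542 without one, 0 to 3 called and −0.291 to −0.208 for the break in scc2-4, and 0 to 5 and −0.28 to −0.148 in wild type. Of 1080 fits of named members without 1 array, 54 ended a call and 0 reversed one.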
